A study of Mus musculus with 27 samples.

Results

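The replication-dependent histone genes encode the H1, H2A, H2B, H3 and H4 proteins that package newly made DNA. They were taken here as the protein-coding genes whose symbols start with Hist1h, Hist2h, Hist3h or Hist4h. The gene table of assembly GRCm38.p6 held 67 of them among 21887 protein-coding genes. The table lists these genes under newer names and keeps the Hist symbols as synonyms, through which all 67 were matched. Hist1h2ba (H2bc1), Hist1h2aa (H2ac1) and Hist1h1t (H1f6) are testis-type, and the other 64 were set against them. Each gene was read over its span plus 1 kb on either side, called its window, at the CpG positions listed in at least 2 of 3 samples of every strain.

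DNA methylation was measured by reduced representation bisulfite sequencing, which reads CpG-rich fragments cut out by the enzyme MspI at CCGG. The DNA came from liver hepatocytes of 27 female mice aged 12 weeks, with 3 biological replicates from each of 9 inbred strains: the laboratory strains A/J, NZO/HlLtJ, C57BL/6J, NOD/ShiLtJ, 129S1/SvImJ and DBA/2J, and the wild-derived strains WSB/EiJ, CAST/EiJ and PWK/PhJ. The study asked how genetic differences between strains relate to differences in chromatin marks and gene expression, and the labels name no treatment and no control strain.

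Replication-dependent histone genes are short, lie in clusters, have no poly(A) tail on their mRNAs and are transcribed mainly in S phase, when a dividing cell copies its DNA. Hepatocytes of adult mice rarely divide. The testis-type genes lie in the same large cluster but encode variants made in male germ cells: TH2B from H2bc1 and TH2A from H2ac1 replace ordinary H2B and H2A during sperm formation, and H1t from H1f6 is a linker histone of spermatocytes. In mammals, CpG-rich promoters are mostly unmethylated in all cell types, whereas promoters of many germline genes are methylated in somatic cells.

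Between 2904738 and 3156915 positions were listed per sample on chromosomes 1 to 19, X and Y. Of 5240332 positions listed in any sample, 1951628 met the listing rule. The values are percentages without read counts, so the depth behind each is unknown and no counting interval can be given. In DNA from many cells, an intermediate percentage cannot tell a share of cells from a share of gene copies. The marker genes listed as a check of the cell type were unevenly covered, from no position to 82 in Hnf4a and 91 in Col1a1. Of 6 hepatocyte genes, Cps1 stood at 56.8% and Hnf4a at 36.2%, Ttr at 10.4% from 4 positions and Alb at 16.0% from 2, and the other 2 had no position. Of 7 genes of other cell types, 5 had at least 5 positions and ran from 27.5% (Krt19) to 89.5% (Pecam1), and Cd79a stood at 84.2% from 2 positions. No gene expression was analysed here.

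The promoters of 4 genes are shown so that CpG content can be compared between the classes; most of the H2bc1 promoter and all of that of H1f6 lacked positions that met the listing rule. They are the testis-type genes H2bc1 and H1f6, and 2 other members of the same cluster, the linker histone gene H1f2 and the H4 gene H4c1. The last 2 were picked after their values were seen. The H2bc1 stretch runs towards H2ac1 but ends before the H2ac1 start at 23934437. The sequences are from RefSeq on GRCm38, run from 250 bases before to 50 bases after the gene start, 5′ to 3′ along the gene, and capitals mark every CpG. H2bc1 is chr13:23934107-23934406 on the minus strand, H1f6 is chr13:23695561-23695860 on the plus strand, H1f2 is chr13:23738557-23738856 on the plus strand and H4c1 is chr13:23761200-23761499 on the minus strand.
H2bc1: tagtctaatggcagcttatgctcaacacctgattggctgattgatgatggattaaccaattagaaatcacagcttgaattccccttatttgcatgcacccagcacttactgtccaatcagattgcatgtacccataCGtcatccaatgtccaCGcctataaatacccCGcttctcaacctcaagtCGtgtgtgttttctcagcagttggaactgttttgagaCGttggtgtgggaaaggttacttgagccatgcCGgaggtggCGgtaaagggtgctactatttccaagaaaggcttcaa
H1f6: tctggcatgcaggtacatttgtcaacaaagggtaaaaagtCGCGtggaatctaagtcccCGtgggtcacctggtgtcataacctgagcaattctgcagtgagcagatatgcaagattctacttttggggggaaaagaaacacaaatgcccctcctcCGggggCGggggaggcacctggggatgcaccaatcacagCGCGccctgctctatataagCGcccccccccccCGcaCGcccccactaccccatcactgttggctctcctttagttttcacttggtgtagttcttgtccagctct
H1f2: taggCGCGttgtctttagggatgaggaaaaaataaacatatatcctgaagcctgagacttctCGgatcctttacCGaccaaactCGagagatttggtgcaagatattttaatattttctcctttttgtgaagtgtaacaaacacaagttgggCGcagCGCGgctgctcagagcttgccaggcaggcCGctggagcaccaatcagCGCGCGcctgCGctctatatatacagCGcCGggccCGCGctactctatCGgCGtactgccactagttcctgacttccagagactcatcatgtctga
H4c1: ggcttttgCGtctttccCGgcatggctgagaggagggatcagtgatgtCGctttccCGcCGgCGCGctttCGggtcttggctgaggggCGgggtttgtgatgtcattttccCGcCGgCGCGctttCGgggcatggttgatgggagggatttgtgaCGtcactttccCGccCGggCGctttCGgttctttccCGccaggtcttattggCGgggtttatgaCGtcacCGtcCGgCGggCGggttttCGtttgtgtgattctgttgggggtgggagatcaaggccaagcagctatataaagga

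CpGs were sparse in the testis-type promoters and dense in the other pair. The promoter of H2bc1 held 7 CpGs, that of H2ac1 8 and that of H1f6 10, against 19 in H1f2 and 27 in H4c1. Over the 60 promoters of other members in the table the median was 11.5 CpGs (range 3 to 41), and over all 21263 promoters it was 13. The ratio of observed to expected CpGs, which corrects for base composition, had a median of 0.754 in the other members, 0.455 in the 3 testis-type genes and 0.567 in all promoters.

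Both classes carried the short promoter elements that histone genes are known for. On either strand, the letters CCAAT stood in 51 of 60 promoters of other members (85.0%), in 3 of 3 testis-type promoters and in 38.2% of all promoters. The letters TATAAA stood in 33 of 60 (55.0%), in 2 of 3 and in 12.6%. CCGG, which MspI cuts, stood in 20 of 60 (33.3%), in 2 of 3 and in 62.2% of all promoters, and CACGTG in 0 of 60, 0 of 3 and 7.84%. None of these motifs lies within another. A match describes the letters in this window and no more.

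Of the 67 genes, 32 had at least 5 positions and a value in every sample and could be tested for strain differences. Another 29 had no position that met the listing rule in every strain, and 6 had too few positions or samples with a value. The 32 comprise H2bc1, H2ac1 and 30 other members. Their windows overlap where genes are close: of 669 distinct positions, 223 lay in more than 1 member's window, and 6 pairs of genes shared exactly the same positions, among them H2bc1 with H2ac1 (36 positions) and H4c1 with H3c1 (80 positions). Such pairs are one measurement under 2 names.

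At the positions that met the listing rule, most of the other members with a tested window were nearly free of methylation in hepatocytes. The testis-type pair was highly methylated in all 9 strains. The median window of the 30 other members stood at 0.775%, and 23 of 30 (76.7%) were below 2%. Across the 16502 protein-coding gene windows with at least 5 positions the median was 20.8%, and 11.2% were below 2%. The windows of 84 other protein-coding genes with a span under 1 kb had a median of 64.0%, with 20 of them (23.8%) below 2% and 36 (42.9%) at 80% or more. The windows of H2bc1 and H2ac1 stood at 90.2% ± 4.34 (SD, n = 27 samples).

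**Figure D1:**
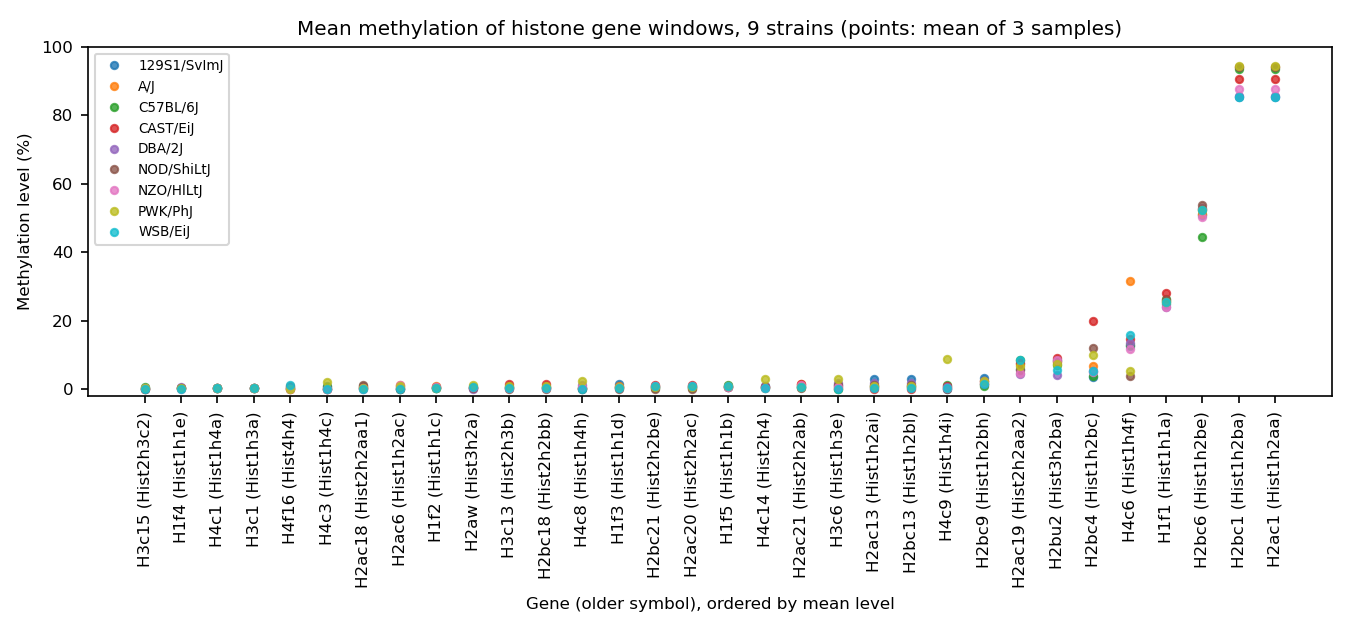
Mean methylation (percent, vertical axis) of the 32 histone gene windows (horizontal axis, ordered by mean level), with 1 point per strain (mean of 3 samples). Most genes lie near 0 in all 9 strains, H4c6, H1f1 and H2bc6 lie higher, and the H2bc1 and H2ac1 points, which are the same 36 positions, lie between 85.4% and 94.6%.

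In each sample, the mean of the testis-type windows exceeded the mean of the other windows by 78.2 to 91.8 points. The difference averaged 85.8 points ± 4.29 (SD, n = 27) and was above 0 in 27 of 27 samples, with testis-type means of 90.2% ± 4.34 and other means of 4.39% ± 0.554. By strain it ran from 81.1 points ± 2.65 in 129S1/SvImJ to 90.1 points ± 1.95 in NOD/ShiLtJ (SD, n = 3). It is given as a description without a test, since genes are not replicates and the testis-type side rests on a single stretch of DNA.

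The contrast was also there at the gene starts, where most genes are unmethylated. A gene with several starts entered with the one of lowest level, which favours low values. Within 500 bp of the start, 10788 protein-coding genes had a median of 0.606%, and only 313 of them (2.90%) stood at 80% or more. The starts of H2bc1 and H2ac1 were both among those, at 91.2% and 89.3%, from positions that lay inside the gene spans. Most of these positions are the ones already used for the window of the pair, and the 2 starts share many of them. Their values are therefore not a separate measurement from the window, nor from each other. The position nearest to the H2ac1 start lay 121 bp away. Of 21 other members with a value at the start, 17 (81.0%) were below 2%, close to the 75.6% over all genes.

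By family, the level was low in all 5, but the families share windows and are not separate measurements. H3c1 had exactly the positions of H4c1, H3c13 those of H2bc18, H2ac20 those of H2bc21 and H2ac13 those of H2bc13. No position of H3c1 or H3c13 lay inside the gene's own span, and the H3 median falls between these genes. Nor did any position of H2ac21, H2ac19, H2ac18, H2ac13 or H2ac6 lie inside its gene's span. Among the tested H2A genes, only H2ac20 and H2aw were read within their own spans. The 4 tested H3 genes, which encode the core histone that carries many regulatory marks, had a median of 0.565% and the 7 H4 genes, its partner in the core tetramer, 0.686%. The 5 linker histone H1 genes had a median of 0.702% and the 7 H2A genes 0.775%. The 7 H2B genes stood at 2.05%, with H2bc6, H2bc4 and H2bu2 among them. H3c15, an H3 gene of the Hist2 cluster, was the lowest of the 32 tested windows, at 0.339% ± 0.391 (SD, n = 27) over 20 positions. These levels hold for positions that met the listing rule in every strain. Over the positions each strain listed by itself, H3c15 ran from 0.229% in NOD/ShiLtJ to 8.04% in C57BL/6J. H3c13 then ran from 5.68% in PWK/PhJ to 15.0% in CAST/EiJ, while H1f4 stayed between 0.184% in NZO/HlLtJ and 0.709% in DBA/2J.

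By cluster the medians were low as well. The 18 tested genes of the Hist1 cluster on chromosome 13 had a median of 0.960%, and the 9 of Hist2 on chromosome 3 had 0.775%. Of the Hist3 genes on chromosome 11, H2aw, an H2A gene, stood at 0.629%, while the nearby H2B gene H2bu2 stood at 7.5%. H4f16, the only Hist4 gene, stood at 0.490%.

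Single positions gave the same picture as the windows. Of 633 positions in windows of other members, 576 (91.0%) had a mean below 5%, and 26 (4.11%) were above 80%. Of the 36 positions of the testis-type pair, 30 (83.3%) were above 80%, and the lowest stood at 69.1% and the highest at 96.6%. Over all listed positions, 57.4% were below 5% and 26.5% above 80%.

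**Figure D2:**
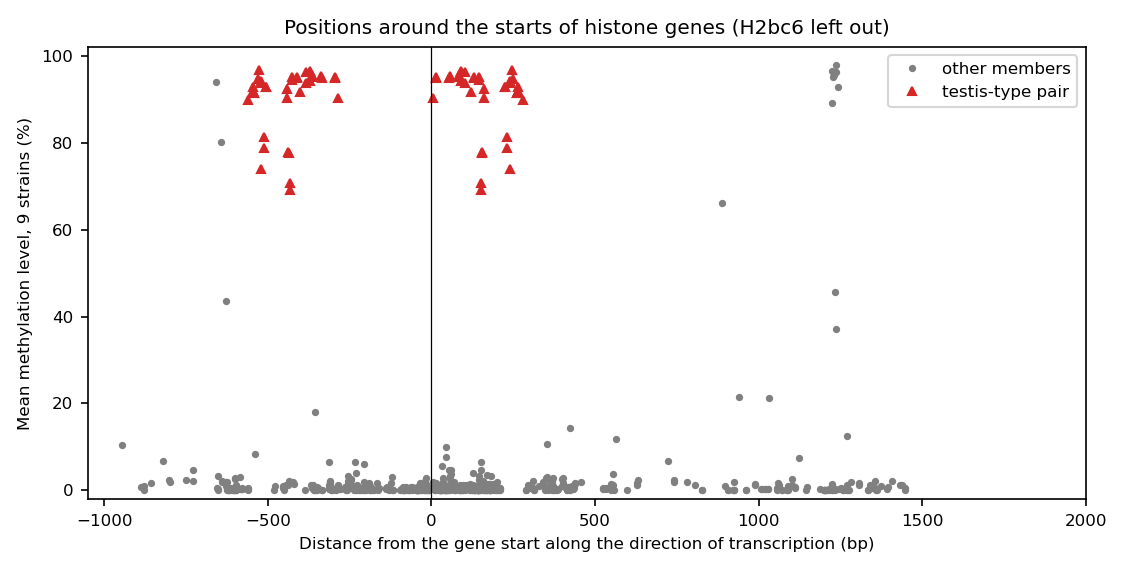
Mean methylation over 9 strains (percent, vertical axis) of each position against its distance from the gene start along the direction of transcription (bp, horizontal axis), for other members (grey) and the testis-type pair (red; each of its positions is drawn once for each of the 2 genes). Left out are H2bc6, whose span is much longer, and 5 members without a start in the promoter table (H2bc4, H2bc21, H3c1, H3c7 and H4c14); grey points crowd near 0 on both sides of the start, and the red points lie between 69.1% and 96.6%.

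Around the starts of the other members, mean methylation was lowest next to the start and higher far from it on both sides. A position in the windows of more than 1 member counts once for each. H2bc6 and the 5 members without a start in the promoter table, H2bc4 among them, are not included. The mean was 0.6% over 121 positions in the 250 bp before the start and 0.801% over 216 positions in the 250 bp after it. Upstream it was 1.21% from 250 to 500 bp and 5.26% from 500 to 1000 bp. Downstream it was 1.27% between 250 and 500 bp, 1.99% in the next 250 bp and 9.39% beyond that, up to 1500 bp. A few highly methylated positions set the means of the outermost bins, whose medians were 0.463% upstream and 0.461% downstream. Of the 98 values in the outermost downstream bin, H2ac21 gave 19 (mean 0.614%), H2ac19 20 (0.336%) and H3c13 23 (0.676%). These positions lie within 500 bp of the starts of the neighbouring members H2ac20, H3c15 and H2bc18. That bin therefore mixes distance from a start with nearness to another. At H2bc1 and H2ac1 the bins ran from 89.7% to 91.4%.

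H2bc1 and H2ac1 point away from each other, with starts 281 bp apart, as do 9 further pairs of histone genes among the members. That count covers only members with a start in the promoter table, so H2bc4, H2bc21, H3c1, H3c7 and H4c14 could not enter it. H2bc1 spans chr13:23933725-23934156 on the minus strand and H2ac1 chr13:23934437-23934913 on the plus strand. All 36 positions lay inside the 2 gene spans, 24 in H2bc1 and 12 in H2ac1. No position between 23934152 and 23934558 met the listing rule, so most of the promoter sequence shown above was not read. Within that printed stretch, the 3 positions that were read, at its 3′ end, had a mean of 93.4%.

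The gene body of H2bc1 stood at 92.3% ± 3.44 and that of H2ac1 at 85.9% ± 7.44 (SD, n = 27). The wider spread in H2ac1 went with strain. Its span stood at 76.0% in DBA/2J, 76.9% in WSB/EiJ, 81.0% in 129S1/SvImJ and 81.1% in NZO/HlLtJ. In the other 5 strains it stood between 91.1% and 92.4%.

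**Figure D3:**
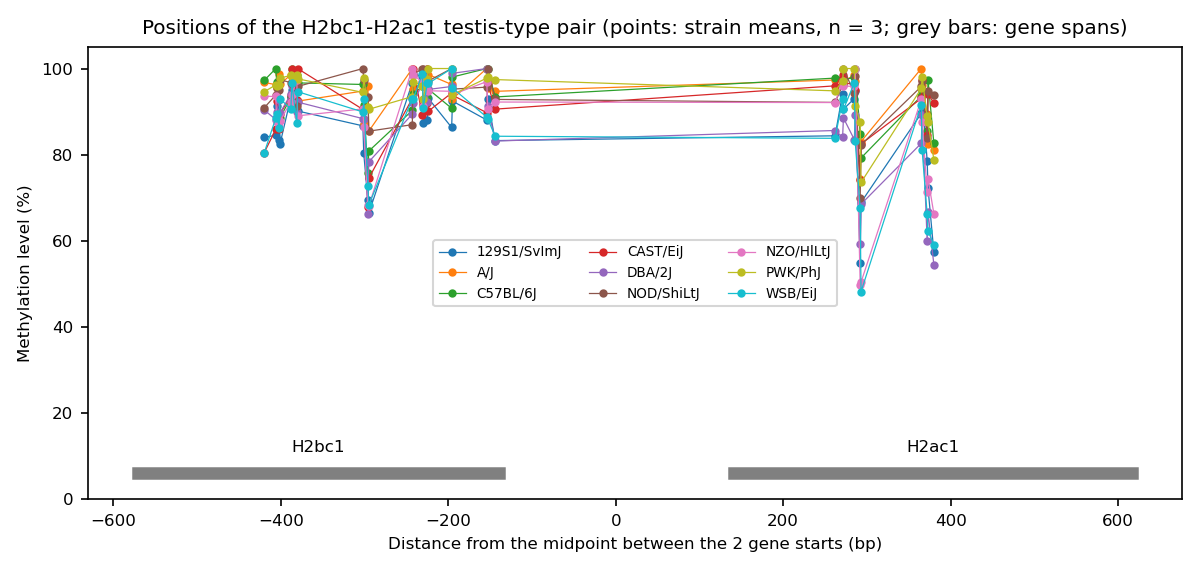
Methylation (percent, vertical axis) at the 36 positions of the H2bc1 and H2ac1 window against distance from the midpoint between the 2 gene starts (bp, horizontal axis), with 1 line per strain joining means of 3 samples and grey bars for the gene spans. The lines across the centre join positions over a stretch without data; strains separate most at the right-hand positions in H2ac1, where DBA/2J and WSB/EiJ drop lowest.

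Over the whole window, the samples read as follows. The PWK/PhJ samples stood at 93.8%, 95.2% and 94.6%, the A/J samples at 95.2%, 91.5% and 96.0%, and the NOD/ShiLtJ samples at 92.4%, 95.5% and 94.6%. The C57BL/6J samples stood at 93.2%, 92.6% and 95.1% and the CAST/EiJ samples at 90.4%, 90.4% and 91.3%. The NZO/HlLtJ samples stood at 89.1%, 85.8% and 88.0%, and the DBA/2J samples at 86.3%, 87.7% and 83.3%. The 129S1/SvImJ samples stood at 86.1%, 87.3% and 82.9% and the WSB/EiJ samples at 82.9%, 83.0% and 90.7%. Every sample of PWK/PhJ, A/J, NOD/ShiLtJ and C57BL/6J thus lay above every sample of NZO/HlLtJ, DBA/2J, 129S1/SvImJ and WSB/EiJ. The CAST/EiJ samples lay between, level with 1 WSB/EiJ sample.

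Strain differences were tested with limma's moderated F test on all 16502 gene windows, with Benjamini-Hochberg adjustment over all of them. A window was called when its adjusted p was under 0.05 and its strain means spanned at least 10 points. That rule called 1150 windows, or 6.97%, and 1 of the 32 histone gene windows, H2bc4. Adjusted p alone was under 0.05 in 26.7% of all windows and in 6 of 32 histone windows: H2bc1, H2ac1, H4c9, H2bc4, H4c14 and H1f1. The median range of strain means was 1.90 points in the 32 histone windows and 2.62 points in all windows.

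For the testis-type pair the strain means spanned 9.15 points, from 85.4% in 129S1/SvImJ to 94.6% in PWK/PhJ, with an adjusted p of 7.11e-05 by the moderated F test. The pair differed between strains by more than the spread within strains but stayed under the 10-point minimum. It passed that minimum, raising the count of called windows from 1 to 3, when 129S1/SvImJ replicate 2, A/J replicate 2 or WSB/EiJ replicate 4 was left out. The gene span of H2ac1 alone, from 76.0% in DBA/2J to 92.4% in C57BL/6J, also passed (adjusted p = 0.000286, limma).

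The test on single positions ran over 868536 positions whose mean lay neither below 2.5% nor within 2.5 points of 100%; a call needed an adjusted p under 0.05 and strain means at least 25 points apart. It called 37638 of them (4.33%). Of 121 histone gene positions tested it called 7: 3 of 36 in the testis-type pair, 3 in H2bc4 and 1 in H4c14. In the pair, position 23934676 near the middle of H2ac1 ran from 54.4% in DBA/2J to 93.8% in NOD/ShiLtJ (adjusted p = 0.0335, limma). Its neighbour 23934669 ran from 62.3% in WSB/EiJ to 97.4% in C57BL/6J (adjusted p = 0.0172, limma), and 23934000 in H2bc1 from 66.1% in DBA/2J to 96.0% in A/J (adjusted p = 0.0186, limma). The lowest strain at each called position was thus DBA/2J or WSB/EiJ. These were also the lowest strains over the H2ac1 span, but that span includes 23934676 and 23934669. Over the H2bc1 span, which holds 23934000, 129S1/SvImJ was lowest at 87.6%, with WSB/EiJ at 89.8% and DBA/2J at 90.7%.

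H1f6, the third testis-type gene, could not be set beside the pair. None of its positions met the listing rule: 13 of 27 samples listed at least 1, with at most 4 in a sample, and 14 listed none. The 45 listed values had a mean of 66.3%, with 28 of them at 100 and 13 at 0. Since different samples list different positions, no level is given for H1f6.

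H2bc4 (Hist1h2bc, an H2B gene, chr13:23684199-23692480) was the only member called over its window. The window stood at 20.1% ± 4.24 in CAST/EiJ, 12.0% in NOD/ShiLtJ and 9.94% in PWK/PhJ, and between 3.5% and 6.97% in the other 6 strains (adjusted p = 1.63e-06, limma; range 16.6 points). Its 14 positions form 2 groups that behaved differently. The 10 positions within 1 kb of the lower end, which also lie in the window of the H2A gene H2ac6, stood at 0.585% ± 0.953 (SD, n = 27). The difference came from 4 positions in the middle of the span, between 23687983 and 23688057.

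At those 4 positions the CAST/EiJ samples stood at 53.5%, 76.0% and 81.4%, the NOD/ShiLtJ samples at 39.8%, 40.9% and 40.2%, and the PWK/PhJ samples at 30.1%, 24.7% and 41.9%. The 18 samples of the other strains stood between 7.89% and 24.3%. CAST/EiJ was above every sample of the other strains, NOD/ShiLtJ above all but CAST/EiJ and 1 PWK/PhJ sample, and PWK/PhJ above the remaining 18. The 3 called positions were 23687987, from 18.4% in 129S1/SvImJ to 87.4% in CAST/EiJ (adjusted p = 9.3e-05, limma), 23687986, from 12.1% to 80.6% in the same strains (adjusted p = 0.00252, limma), and 23687983, from 9.57% in C57BL/6J to 67.2% in CAST/EiJ (adjusted p = 0.00129, limma). Sequence differences between strains at these CpGs were not analysed here. With only positions in the window of exactly 1 gene, 4 positions are left in H2bc4, too few for the window test.

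**Figure D4:**
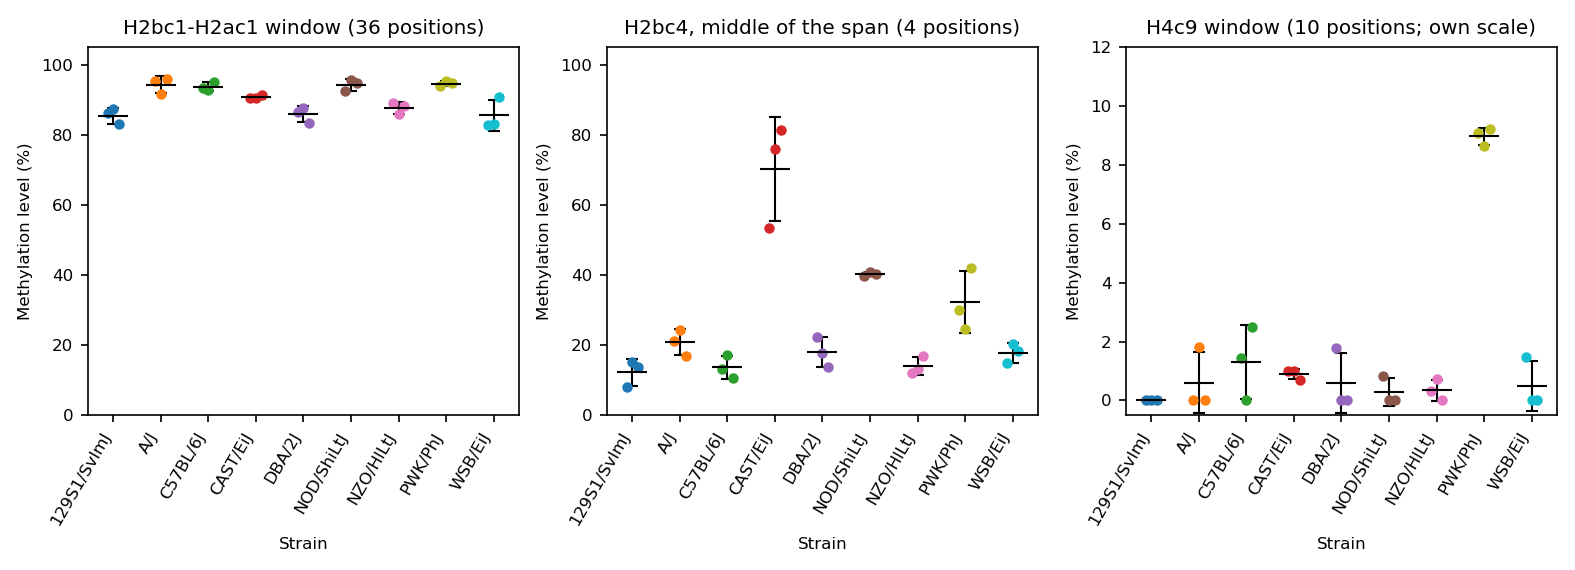
Methylation (percent, vertical axis) of each sample (points) by strain (horizontal axis), with the mean (long bar) and SD (whiskers, n = 3), for the H2bc1 and H2ac1 window, the 4 positions in the middle of H2bc4, and the H4c9 window on its own, narrower scale. The testis-type pair is high in all strains, CAST/EiJ stands highest at H2bc4, and PWK/PhJ alone stands near 9% at H4c9.

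H4c9 (Hist1h4i, an H4 gene) was set apart in PWK/PhJ at a low level. Over its 10 positions the PWK/PhJ samples stood at 9.07%, 8.65% and 9.20%, and the other 24 samples between 0% and 2.5%, so that the groups did not overlap. The adjusted p was 1.32e-06 (limma), but the range of 8.98 points was under the 10-point minimum. H4c14 (Hist2h4, another H4 gene) showed a like pattern at 2 positions. At 96263910 on chromosome 3 the PWK/PhJ samples stood at 11.1%, 42.9% and 40.0% and all 24 others at 0% (adjusted p = 0.000285, limma, called). At 96263930 the PWK/PhJ mean was 24.2% and all others were at 0% (adjusted p = 0.000299, limma), just under the 25-point minimum. Both positions reached the mean of 2.5% needed for testing only through their PWK/PhJ values. Their adjusted p values are therefore no separate support for that difference. Sequence variants of PWK/PhJ at these sites were not analysed here.

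The other members with a tested window of 10% or more were H1f1, H2bc6 and H4c6, and in each of them low and high positions lay in separate stretches. H1f1 (Hist1h1a, a linker histone gene, chr13:23763668-23764412, plus strand) stood at 25.6% ± 1.53 (SD, n = 27). Its 20 positions upstream and in the span stood at 2.34% ± 1.43, and the 8 positions in the 1 kb downstream at 83.8% ± 2.73. Of those 8, the one nearest to the gene, 23764793, stood at 7.56%, and the other 7 between 89.1% and 97.9%. The downstream samples ran from 77.9% to 88.8% and the upstream and span samples from 0.6% to 6.88%, so the means of the 2 stretches were far apart in every sample. The strain means of the window spanned only 4.22 points (adjusted p = 0.0232, limma), and the adjusted p ran from 0.00294 to 0.182 over the alternatives.

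H2bc6 (Hist1h2be, an H2B gene) has an annotated span of 37455 bases on the minus strand and stood at 51.2% ± 4.67. The 15 positions within 3 kb of the lower coordinate, which lie downstream of a further H2bc6 start that the promoter table lists at 23585970, stood at 0.910% ± 2.51 and the 21 further into the span at 88.1% ± 5.70. The strain means spanned 9.46 points from C57BL/6J to NOD/ShiLtJ and were not called (adjusted p = 0.543, limma). NOD/ShiLtJ replicate 1 stood at 67.6% from 29 of the 36 positions. Without it the difference between those 2 strains was 2.61 points, the adjusted p over all strains was 0.0199 (limma), and the window was still not called. H4c6 (Hist1h4f, an H4 gene) stood at 13.7% ± 14 over 7 positions, with a mean of 0% at the 4 in the span and 23.0% at the 3 upstream. Its A/J samples read 3.57%, 25% and 66.7%, the last from 3 of the 7 positions. The strain means spanned 27.8 points from NOD/ShiLtJ to A/J and were not called (adjusted p = 0.717, limma). That difference was 10.3 points without A/J replicate 3 and 41.9 points without A/J replicate 1.

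**Figure D5:**
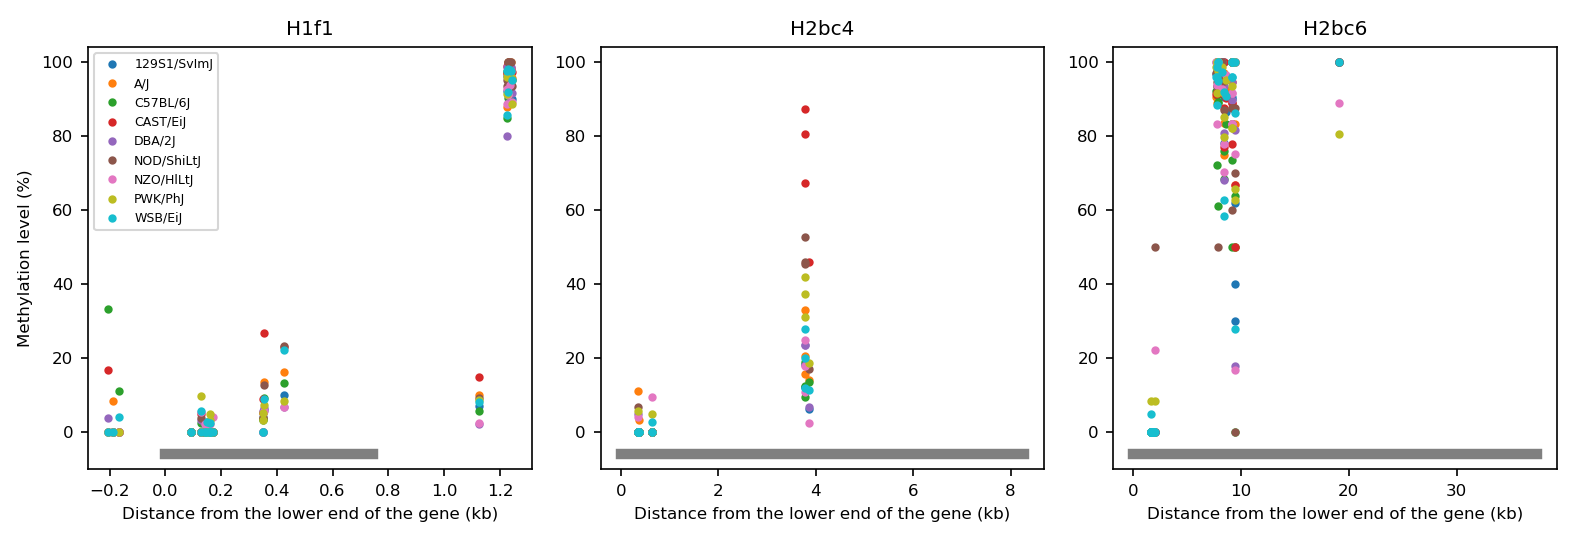
Methylation (percent, vertical axis) at each position of the H1f1, H2bc4 and H2bc6 windows against distance from the lower coordinate of the gene (kb, horizontal axis), with 1 point per strain (mean of its samples) and grey bars for the gene spans. In each window a group of low positions is followed by a separate group of higher ones, and CAST/EiJ lies highest in the middle of H2bc4.

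At H2bu2 (Hist3h2ba, an H2B gene of the Hist3 cluster) the order along the gene was that of H1f1, with a lower downstream level. Its 21 upstream and span positions stood at 3.37% ± 2.25 and the 4 downstream positions at 29.2% ± 12.1. The window was not called (adjusted p = 0.319, limma; range 5.10 points). Of the 26 positions above 80% outside the testis-type pair, 17 lay in H2bc6, 7 in H1f1 and 2 upstream of H2ac19, an H2A gene of the Hist2 cluster.

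The histone variants that are made outside S phase, a list of 15 genes, were low at most starts, as protein-coding genes are in general. Of 11 with a value at the start, 10 were below 5%, with a median of 0.556% over the 11. Over all protein-coding gene starts the median was 0.606%, and 75.6% were below 2%. H3f3a, which encodes H3.3, stood at 0.508% and H2afz, which encodes H2A.Z, at 0.5%. The exception was H1fnt, a linker histone of spermatids, at 87.1%. Of the 12 windows tested 0 were called, against 6.97% of all windows, and 5 had an adjusted p under 0.05 (limma), against 26.7%.

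The genes that transcribe and process histone mRNA were low at most starts, near the level of all gene starts. The list named 13, of which 11 were found in the table. Their starts, with 10 values, had a median of 0.573%, and 8 were below 5%. All protein-coding gene starts had a median of 0.606%, with 75.6% below 2%. Npat, the activator of histone gene transcription, stood at 0.440% and Slbp, which binds the stem-loop of histone mRNA, at 0.667%. Cstf2, an X-linked cleavage factor gene, stood at 22.0%. Of the 11 windows 0 were called, against 6.97% of all windows, and 1 (Zfp473) had an adjusted p under 0.05 (limma), against 26.7%.

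A list of 18 germline genes, drawn up for CpG-rich starts, gave a range to set beside the testis-type pair. Their 15 start values ran from 63.2% to 96.1% with a median of 87.9%, and 11 stood at 80% or more. Tuba3a, a testis tubulin gene, stood at 96.1%, Sycp1, of the synaptonemal complex, at 87.8%, and Dazl, an RNA-binding protein of germ cells, at 86.1%. Of their 18 windows 8 were called for strain differences, against 6.97% of all windows, among them Ddx4, with a range of 18.1 points (adjusted p = 7.35e-06, limma). The pair's start levels of 91.2% and 89.3% lie inside this range. Its promoters hold 7 and 8 CpGs, and the CpG content of the germline gene promoters was not compared with them here.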

How the data were processed

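DNA methylation of hepatocytes was measured by reduced representation bisulfite sequencing in 27 samples, 3 per strain, grouped by the strain in their labels. Per the submitters' processing notes, Trim Galore 0.6.3, Bowtie2 and Bismark 0.22 and the builds GRCm38 and mm10 were used. The authors deposited, per sample, a list of positions with a percent methylation and no read counts, so the depth is unknown, and any coverage filter is not given in the sources used here. Files of C57BL/6J name the mitochondrial chromosome differently from those of the other strains, so a difference in processing cannot be told apart from that strain. Of 260275 listed positions in promoter sequences, 260183 (99.96%) fell on a CpG of GRCm38.

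A gene's level is the mean percent over those of its positions that a sample lists, with positions given equal weight and both strands of a CpG kept as separate positions. Strain differences were tested with the moderated F test of limma (8 and 18 degrees of freedom before the prior) on log2((percent + 5)/(100 - percent + 5)), over windows with at least 5 positions or over single positions. The calculation, written in Python (version 3.11.15; pandas 2.3.3, scipy 1.17.1, numpy 2.4.6; matplotlib 3.10.9 for figures), was tested on simulated data. Set beside R 4.3.3 with limma 3.58.1, it differed in 0 calls at an adjusted p of 0.05 over 16502 windows and in 0 over 704330 positions. Named are the testis-type genes, the lowest tested member, tested members of 10% or more, called windows and positions, and the 5 largest strain ranges; others were chosen after their values were seen. The members and lists were chosen with earlier results of these data known.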

Additional observations from a re-analysis of the deposited data

How the results depend on the processing

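The testis-type minus other difference of 85.8 points lay between 85.6 and 86.1 when each sample was left out in turn, and moved by more than its SD only in the window from 250 bases before to 50 after the start, where it was 92.5 points, with 1 testis-type promoter (93.4%) against 14 others (0.913%). Restricting members to spans of at most 3 kb, an alternative chosen after seeing the data, gave 87.6. With positions of exactly 1 gene no value was obtained, since the pair shares all 36. The count of called windows, 1, became 2 with gene spans alone, 0 with positions in the window of exactly 1 gene, 6 with no minimum range and 0 with a minimum of 25 points, and 1 to 3 with a sample left out. With no minimum range, 26.7% of all windows were called. For the other window settings the share over all windows is not given here. The count of called positions, 7, became 4 with an offset of 1, 10 on untransformed percent and with a minimum range of 10 points or none, and 6 to 8 with a sample left out. Over all 868536 tested positions the count, 37638, moved in the same directions. It became 25142 with an offset of 1, 47478 on untransformed percent, 40582 with a minimum range of 10 points and 40596 with none. The testis-type minus other difference was at least 85.1 points in every alternative that gave a value, whereas the counts of calls depended on the settings. At H2bu2, which was not called, CAST/EiJ minus DBA/2J was 5.10 points in the window and -0.303 points with the gene span alone. Percentages without counts limit every value here: positions of few reads weigh as much as deep ones.

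No pairing of samples across strains by replicate number was seen: the 76 pairs of samples with the same number had a mean correlation of deviations of 0.000877, and none was above 0.1. The 248 pairs that differed in number and strain had a mean of -0.000268. Since the depth is unknown, these values cannot show whether a weak shared effect was present. With the number as a replicate block, 1 window was called, and 6 positions among those listed in all 27 samples, against 7 without the block. Over the 704330 tested positions listed in all 27 samples, 26437 were called with the block and 35021 without it. For H2bc1 and H2ac1 the adjusted p was then 0.000588 and for H2bc4 0.000117 (limma).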

Other observations

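Of the 29 histone genes with no position that met the listing rule in every strain, 2 (H2bc23 and H4c2) had none listed in any sample, and 24 had at least 5 positions in at least 1 strain. Those gave 121 combinations of gene and strain, with a median of 0.608%, of which 101 were below 5% and 12 at 10% or more. H2bc7, an H2B gene that points away from the H2A gene H2ac7, had 7 such positions in each of 7 strains, at 8.21% in C57BL/6J to 17.4% in CAST/EiJ, and none in NOD/ShiLtJ or PWK/PhJ. The number of histone genes with at least 5 positions ran from 47 in A/J to 56 in CAST/EiJ, with 55 in PWK/PhJ.

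H2bc12, an H2B gene of the Hist1 cluster, was too thinly covered for the window test, with 2 positions. At 22036708 its mean was 66.2%. At 22036853 it stood at 53.0% ± 13.9 in PWK/PhJ and 43.3% ± 21.6 in CAST/EiJ (SD, n = 3), and between 8.80% and 18.3% in the other 7 strains. Neither position was called (adjusted p = 0.579 and 0.0837, limma over all positions), and the lowest CAST/EiJ sample, at 21.4%, lay inside the range of the other strains.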
